A study of Rattus norvegicus with 70 samples.

Results

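A set of 10 autophagy genes, out of the 19441 genes in each table, was followed across 6 tissues of ozone-exposed rats. They were taken by symbol, and each of the 10 was present and abundant enough to be tested in every tissue. The genes were Ulk1, Becn1, Atg14, Wipi1, Map1lc3a, Map1lc3b, Gabarapl1, Sqstm1, Bnip3 and Ctsl. The study measured messenger RNA by sequencing in muscle, adipose tissue, hypothalamus, adrenal gland, lung and liver, taken whole from male Wistar-Kyoto rats, an inbred strain. One group breathed air and the other breathed 0.8 ppm ozone, an oxidant gas, for 4 h; the labels name no other treatment, no genetic change and no age. Lung, liver and hypothalamus had 6 air and 6 ozone libraries, the adrenal gland 5 and 6, adipose tissue 5 and 5, and muscle 6 and 5. In such bulk samples, fewer cells of a type and less RNA per cell cannot be told apart.

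Autophagy is the process by which a cell wraps part of its contents in a double membrane and delivers it to the lysosome for breakdown. A kinase complex starts it, a lipid kinase complex marks the membrane, small ubiquitin-like proteins of the ATG8 family are coupled to the growing membrane, receptors bring cargo to them, and lysosomal proteases degrade what arrives. It runs at a low rate in most tissues and is known to increase in liver and skeletal muscle during fasting. Transcript levels of these genes do not measure the rate of autophagy itself.

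The 250 bases before the transcription start of the 3 members are shown first: Map1lc3b and Gabarapl1, which both rose in lung and muscle but parted in liver, and Bnip3, which rose in lung and adipose tissue. The sequences are from RefSeq on rat build GRCr8, 5′ to 3′ on the gene's strand, and capitals mark the letters CACGTG, an E-box core of the kind bound by the lysosomal regulator TFEB.
Map1lc3b, chr19:66574345-66574594, plus strand: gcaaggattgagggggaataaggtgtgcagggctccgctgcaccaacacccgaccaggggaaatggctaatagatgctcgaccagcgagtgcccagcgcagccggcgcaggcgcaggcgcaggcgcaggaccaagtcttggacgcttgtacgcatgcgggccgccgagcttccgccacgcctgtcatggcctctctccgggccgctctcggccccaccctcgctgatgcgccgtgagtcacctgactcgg
Gabarapl1, chr4:164666082-164666331, plus strand: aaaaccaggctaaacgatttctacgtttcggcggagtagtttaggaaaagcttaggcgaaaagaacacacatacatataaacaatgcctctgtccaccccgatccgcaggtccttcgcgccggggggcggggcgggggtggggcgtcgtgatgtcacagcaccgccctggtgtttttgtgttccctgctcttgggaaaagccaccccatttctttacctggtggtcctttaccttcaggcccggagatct
Bnip3, chr1:203154963-203155212, minus strand: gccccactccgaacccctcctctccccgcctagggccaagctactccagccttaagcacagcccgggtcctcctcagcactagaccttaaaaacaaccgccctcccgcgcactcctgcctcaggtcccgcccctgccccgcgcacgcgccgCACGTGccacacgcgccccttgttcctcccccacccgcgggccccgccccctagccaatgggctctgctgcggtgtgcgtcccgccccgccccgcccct
A sequence was matched for 8 of the 10 members, namely those 3 and Ulk1, Atg14, Wipi1, Sqstm1 and Ctsl. On both strands of the 250 bases, CACGTG was found in 1 of the 8, Bnip3, starting 99 bases before the transcription start, and in 5.59% of 33469 rat promoters. The FOXO core GTAAACA was found in 0 of the 8 and in 3.22% of all promoters. The glucocorticoid response element core was found in 0 of the 8 and in 0.374% of all promoters. These are matches of letters in a short window, and no binding was measured.

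Muscle and lung held most of the changes. The 10 genes were chosen with earlier results of these data known. Their counts beside the shares of all genes are therefore a description only. In lung 7 of the 10 genes rose and 0 fell at an adjusted p under 0.05 (limma on log2(value + 1), Benjamini-Hochberg over all genes tested), where 9.51% of all genes tested rose and 8.18% fell. In muscle 5 rose and 1 fell, but 21.6% of all muscle genes rose and 22.1% fell. Of the adrenal values, 4 rose and 0 fell, against 9.23% and 9.38% of all genes. In liver 2 rose and 0 fell, against 6.74% and 4.72%. In adipose tissue 1 rose and 0 fell, against 3.87% and 3.45%. In the hypothalamus 0 of the 10 passed in limma, in edgeR or in DESeq2, where 0.789% of all genes rose and 0.624% fell, and 1 of the 10, Gabarapl1, had an unadjusted p under 0.05.

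The median log2 fold change of the 10 genes, ozone minus air, was 0.40 in lung, 0.21 in liver, 0.17 in the adrenal gland, 0.11 in the hypothalamus, 0.32 in adipose tissue and 0.41 in muscle. Over all genes tested the median lay between -0.004 and 0.02. Ozone libraries lay wholly above air libraries for 5 of the 10 genes in lung, where this held for 5.54% of all genes. The same count was 1 in liver (4.77% of all genes), 2 in the adrenal gland (6.49%), 0 in the hypothalamus (1.17%), 2 in adipose tissue (4.38%) and 5 in muscle (12.8%). Of the 10 members, 0 had ozone libraries wholly below air libraries in any tissue, where this held for 4.00% of all genes in lung, 2.85% in liver, 6.39% in the adrenal gland, 0.979% in the hypothalamus, 4.43% in adipose tissue and 11.5% in muscle.

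**Figure D1:**
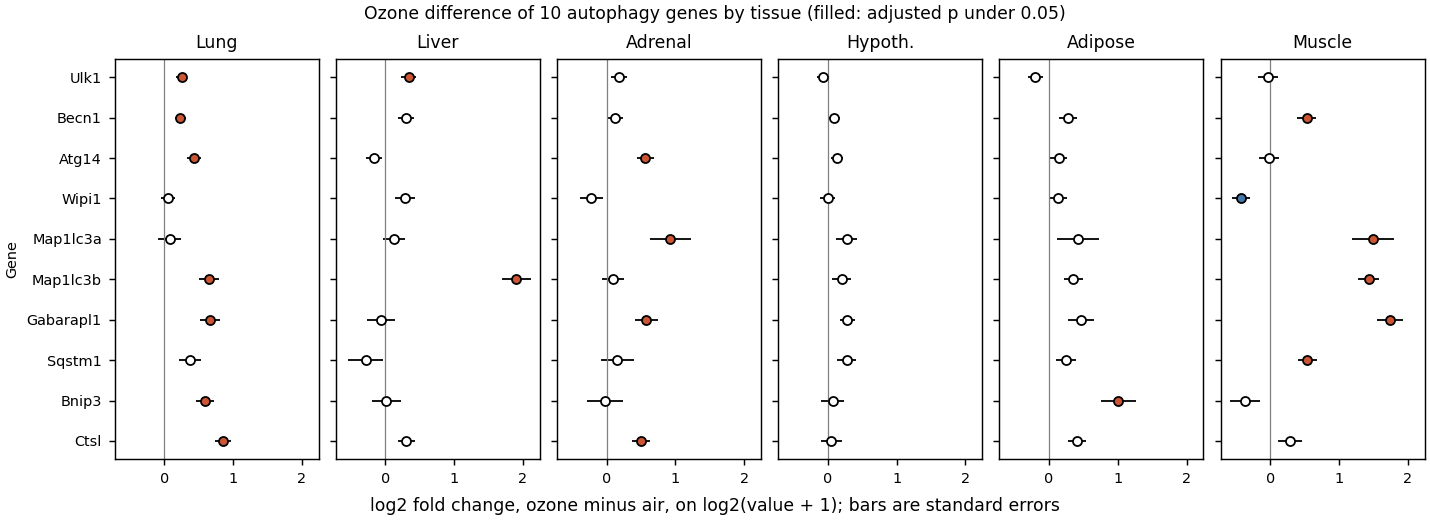
Log2 fold change (ozone minus air, horizontal axis, with standard error bars) of each gene in each tissue, with filled points for adjusted p under 0.05 (red risen, blue fallen). Map1lc3b stood alone at 1.90 in liver, the 3 ATG8 members stood between 1.43 and 1.74 in muscle, and no hypothalamic point was filled.

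These counts depended on how libraries were scaled. With the total of recovered reads in place of the deposited scaling, the median log2 fold change of all genes moved to -0.13 in the adrenal gland, -0.13 in adipose tissue and -0.30 in muscle, and to between -0.07 and -0.03 in the other 3 tissues. The risen share of all calls moved from 53.8% to 37.2% in lung, from 49.6% to 29.5% in the adrenal gland, from 55.8% to 45.0% in the hypothalamus, from 52.8% to 27.4% in adipose tissue and from 49.4% to 18.4% in muscle. On that scaling 5 members rose in lung (6.78% of all genes), 1 in liver (5.62%), 0 in the adrenal gland (6.05%), 0 in adipose tissue (2.50%) and 3 in muscle (8.58%). Of the 10, 2 then fell in muscle, where 38.2% of all genes fell. Map1lc3b in lung, liver and muscle, Gabarapl1 in lung and muscle, Map1lc3a in muscle, Atg14, Bnip3 and Ctsl in lung, and the fall of Wipi1 in muscle passed on both scalings.

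The responses also differed between tissues by direct test. In 1 fit over 11111 genes tested in all 6 tissues, the ozone difference varied between tissues for 8 of the 10 members (limma, F over 5 interaction terms, Benjamini-Hochberg), where 41.9% of all genes passed. The F was 19.7 for Map1lc3b (adjusted p = 8.01e-10), 11.7 for Gabarapl1 (1.18e-06), 7.07 for Atg14 (0.000216), 4.70 for Ulk1, 4.67 for Map1lc3a, 4.48 for Bnip3, 4.23 for Wipi1 and 3.97 for Ctsl (adjusted p = 0.0116). Becn1 (F = 2.53, adjusted p = 0.0804) and Sqstm1 (F = 2.05, adjusted p = 0.150) did not pass. Each tissue's difference was also set against the mean of the other 5. By that contrast 6 members stood apart in muscle (35.5% of all genes), 4 in liver (9.08%), 2 in the adrenal gland (18.9%) and 1 each in lung (3.69%), hypothalamus (1.78%) and adipose tissue (4.85%).

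Ulk1, the kinase that starts autophagosome formation, rose slightly in lung and liver. In lung its deposited values, which are gene counts divided by a size factor per library, ran from 933 with a median of 961 to 1102 in air and from 1039 with a median of 1185 to 1303 in ozone. This gave a log2 fold change of 0.25 ± 0.08 (SE, adjusted p = 0.0327, limma). In liver they ran from 672 with a median of 807 to 872 in air and from 839.9 with a median of 990.1 to 1125 in ozone, a log2 fold change of 0.34 ± 0.10 (adjusted p = 0.0493, limma). The groups overlapped at their edges in both tissues. The lung call ended when any 1 of air 1, 2 or 8 or ozone 14, 15, 16, 19 or 20 was left out, with an adjusted p of at most 0.0724, and with total reads (0.0892). The liver call ended without any 1 of 10 of its 12 libraries, all except air 1 and ozone 18, with an adjusted p of at most 0.117, and in edgeR (0.0586). Of 11 alternative analyses the liver call held in 5, and limma with total reads gave an adjusted p of 0.140. The liver difference exceeded the mean of the other tissues by 0.31 (adjusted p = 0.0438, limma). Its log2 fold change was 0.18 in the adrenal gland, -0.03 in muscle, -0.07 in the hypothalamus and -0.20 in adipose tissue, with adjusted p between 0.312 and 0.886.

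The lipid kinase complex of autophagy holds Becn1, its beclin scaffold, and Atg14, the subunit that directs it to the forming membrane. Becn1 rose in muscle, from a range of 519 to 838 with a median of 767 in air to 916, 1035, 1057, 1058 and 1093 in ozone. All 5 ozone libraries lay above all 6 air libraries, and the log2 fold change was 0.53 ± 0.14 (adjusted p = 0.00709, limma). It exceeded the mean of the other tissues by 0.33 (adjusted p = 0.0158, limma), although the F test over tissues had not passed for this gene. With total reads the muscle difference was 0.21 (adjusted p = 0.232), against the shift of all genes to -0.30. In lung Becn1 ran from 844 with a median of 1005 to 1073 in air and from 1089 with a median of 1128 to 1252 in ozone, again without overlap. That log2 fold change was 0.24 ± 0.08 (adjusted p = 0.0464, limma), and the call held only without air 10. Each of the other 11 omissions gave an adjusted p of at most 0.0992, edgeR gave 0.0505 and limma with total reads gave 0.180. Of 11 alternative analyses the lung call held in 6. In liver, adrenal gland, hypothalamus and adipose tissue its log2 fold change was 0.30, 0.12, 0.09 and 0.28, and none passed.

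Atg14 rose in lung and in the adrenal gland. In lung it ran from 267 with a median of 321 to 362 in air and from 373 with a median of 420.3 to 478 in ozone. That difference was 0.43 ± 0.10 on the log2 scale (adjusted p = 0.00805, limma), and the groups did not overlap. In the adrenal gland the air values were 178, 211, 240.5, 253 and 266, and the ozone values ran from 316 with a median of 335 to 363. This log2 fold change was 0.56 ± 0.12 (adjusted p = 0.00717, limma), again without overlap. It lay 0.46 above the mean of the other tissues (adjusted p = 0.00216, limma). With total reads the adrenal difference was 0.43 (adjusted p = 0.0645). In liver the log2 fold change was -0.17 and did not pass, but its contrast with the mean of the other tissues was -0.42 (adjusted p = 0.00678, limma). In the hypothalamus, adipose tissue and muscle it was 0.13, 0.14 and -0.02.

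Wipi1, a protein that reads the lipid mark on the forming membrane, fell in muscle. This was the 1 fall among the 10 genes in the unweighted limma fit with the deposited scaling and all libraries. In muscle Wipi1 ran from 547 with a median of 646 to 849.8 in air, and the ozone values were 446, 467, 499.7, 544 and 549.9. The log2 fold change was -0.42 ± 0.13 (adjusted p = 0.0174, limma). The groups touched, since the lowest air library lay between the 2 highest ozone libraries. The call held without each of the 11 muscle libraries in turn, with an adjusted p of at most 0.04995, and was stronger with total reads, at -0.75 (adjusted p = 0.000435). The muscle difference was -0.47 against the mean of the other tissues (adjusted p = 0.00534, limma). In the other tissues the log2 fold change lay between -0.22 in the adrenal gland and 0.29 in liver, and none passed.

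Among the ATG8 family, Map1lc3b, Gabarapl1 and Map1lc3a encode ubiquitin-like proteins that are joined to membrane lipid and mark autophagosomes. Map1lc3b had the largest liver change of the 10 genes. In liver it ran from 267 with a median of 289.8 to 534 in air and from 909 with a median of 1189 to 1999.7 in ozone. The lowest ozone library stood above the highest air library, and the log2 fold change was 1.90 ± 0.21 (adjusted p = 3.22e-05, limma). In muscle it ran from 212 with a median of 260.1 to 316 in air, and the ozone values were 570.3, 606, 718, 857 and 891. That was a log2 fold change of 1.43 ± 0.15 (adjusted p = 2.18e-05, limma), with no overlap. In lung it ran from 320.5 with a median of 449 to 504 in air and from 463 with a median of 667 to 893 in ozone, a log2 fold change of 0.65 ± 0.15 (adjusted p = 0.00744, limma). There ozone 14, at 463, lay inside the air range.

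In adipose tissue the Map1lc3b air values were 353, 369, 426, 464 and 470.2 and the ozone values were 485, 487, 489.8, 521 and 689.9. These groups did not overlap, but the log2 fold change of 0.36 ± 0.14 did not pass (adjusted p = 0.164, limma). The adrenal values were 352, 384, 394, 496 and 576 in air and ran from 389.7 with a median of 457 to 599.7 in ozone, a log2 fold change of 0.10 ± 0.16 (adjusted p = 0.737). The hypothalamic log2 fold change was 0.20 ± 0.14 (adjusted p = 0.525). Against the mean of the other tissues, the Map1lc3b difference was 1.36 in liver (adjusted p = 3.40e-08), 0.79 in muscle (0.000644), -0.81 in the adrenal gland (0.000756) and -0.69 in the hypothalamus (0.0257, limma). The liver, muscle and lung calls held without each library in turn and under every alternative analysis run.

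Map1lc3b has a near-identical copy in these tables, Map1lc3b2, which the RefSeq table lists as a pseudogene, so reads of one can have been counted in the other. The Map1lc3b2 values moved in the same direction. In liver they averaged 265 ± 77.9 in air and 833 ± 192 in ozone (SD, n = 6 each), and in muscle 197 ± 36.5 (SD, n = 6) and 636 ± 118 (SD, n = 5). With the reads of both entries summed, the log2 fold change was 1.81 ± 0.18 in liver, 1.54 ± 0.15 in muscle and 0.62 ± 0.11 in lung, and each of the 3 calls held (adjusted p = 1.93e-05, 9.26e-06 and 0.00130, limma). The summed log2 fold change was 0.07 in the adrenal gland, 0.24 in the hypothalamus and 0.29 in adipose tissue, and none passed.

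Gabarapl1 rose most in muscle. There it ran from 252 with a median of 333 to 597 in air, and the ozone values were 1018, 1089, 1128, 1191 and 1523. The log2 fold change was 1.74 ± 0.19 (adjusted p = 2.64e-05, limma), with no overlap even though air 9 at 597 stood well above the other air libraries. It exceeded the mean of the other tissues by 1.35 (adjusted p = 2.41e-07, limma). In lung it ran from 538 with a median of 842 to 1140.2 in air and from 1186 with a median of 1295 to 1466 in ozone. That log2 fold change was 0.67 ± 0.15 (adjusted p = 0.00535, limma), and the groups did not overlap.

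For Gabarapl1 in the adrenal gland the air values were 1502, 2236, 2574, 2589.8 and 2799.8, and the ozone values ran from 2759 with a median of 3551 to 3972. Gabarapl1 thus had an adrenal log2 fold change of 0.58 ± 0.16 (adjusted p = 0.0271, limma), and the groups overlapped only through ozone 16 at 2759 and air 2 at 2799.8. The call ended without any 1 of air 9 or ozone 14, 15, 19 or 20, with an adjusted p of at most 0.0617, and with total reads (0.45, adjusted p = 0.132). In liver, where Map1lc3b rose, Gabarapl1 ran from 878 with a median of 1284 to 1859 in air and from 976 with a median of 1166 to 1806 in ozone. Those ranges lay almost on top of each other, and the log2 fold change was -0.07 ± 0.20 (adjusted p = 0.911). The liver difference was -0.81 against the mean of the other tissues (adjusted p = 0.00184, limma). In adipose tissue and hypothalamus it was 0.47 ± 0.18 (adjusted p = 0.159) and 0.29 ± 0.11 (adjusted p = 0.253).

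Map1lc3a rose in muscle and in the adrenal gland. In muscle it ran from 76.4 with a median of 202 to 310.5 in air, and the ozone values were 383, 445, 467, 609.8 and 616. The log2 fold change was 1.49 ± 0.31 (adjusted p = 0.00209, limma), with no overlap, and it exceeded the mean of the other tissues by 1.13 (adjusted p = 0.00140). In the adrenal gland the air values were 183, 212, 386, 493 and 535 and the ozone values ran from 439 with a median of 596 to 1017. Its log2 fold change was 0.93 ± 0.30 (adjusted p = 0.0452, limma), with overlap. That call ended without any 1 of air 6, 8 or 11 or ozone 14, 15, 17, 19 or 20 (adjusted p of at most 0.115), in edgeR (0.0652) and with total reads (0.0991). Of 11 alternative analyses the adrenal call held in 7. Air 6 and air 8 were the 2 low libraries, and air 8 was also the adrenal library least like its group. In lung the Map1lc3a ranges, 222 to 430.2 in air and 279 to 423 in ozone, overlapped almost fully. No lung, liver, hypothalamic or adipose difference passed.

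The muscle response therefore covered 3 of the 5 ATG8 genes, where 21.6% of all muscle genes rose. The other 2, Gabarap and Gabarapl2, passed in no tissue. The 3 muscle rises were 1.11, 1.41 and 1.17 for Map1lc3b, Gabarapl1 and Map1lc3a with total reads, where all genes shifted to a median of -0.30, and all 3 still passed.

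**Figure D2:**
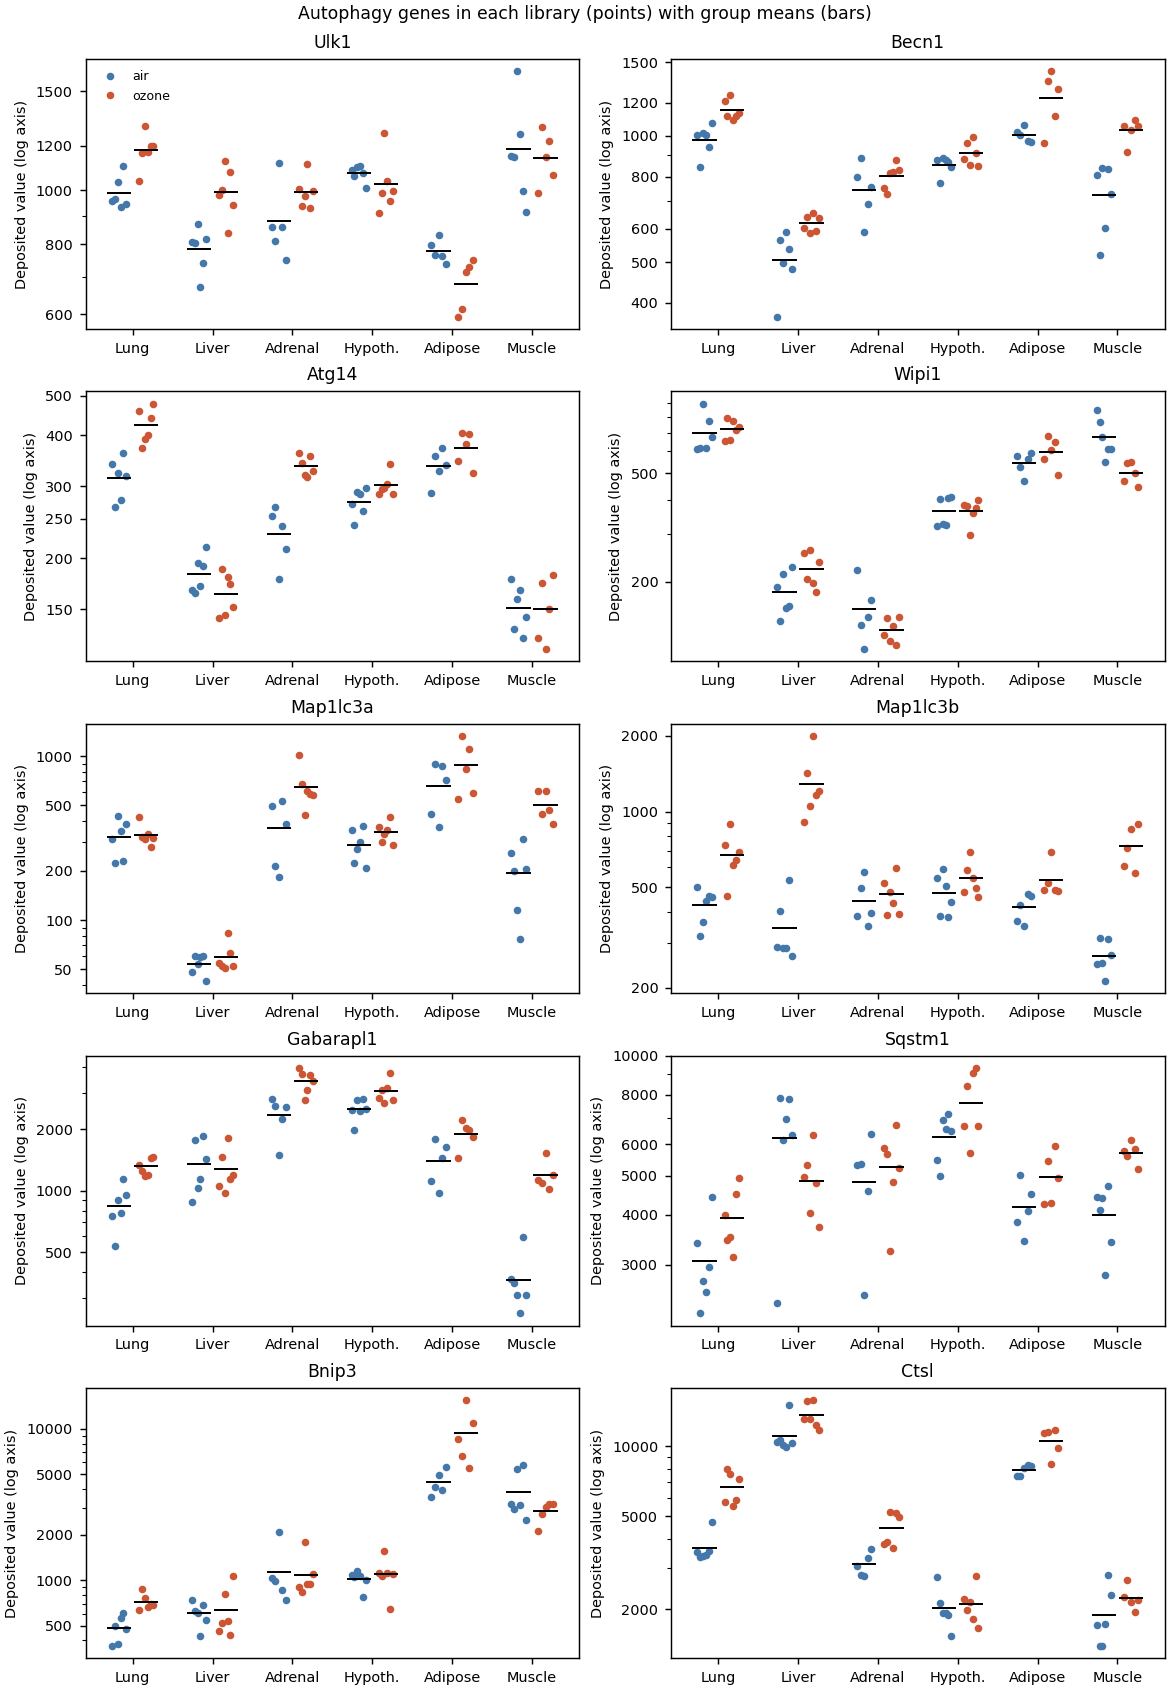
Deposited value (vertical log axis) of each of the 10 genes in every library, air in blue and ozone in red, with a black bar for each group mean. The 3 ATG8 genes show separate air and ozone groups in muscle, Map1lc3b shows them in liver, and Ctsl shows them in lung, adrenal gland and adipose tissue.

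Sqstm1 encodes the cargo receptor p62, which links ubiquitin-tagged material to ATG8 proteins and is itself degraded with it. It rose in muscle, from a range of 2819.8 to 4727 with a median of 4252 in air to 5193, 5606, 5783, 5851 and 6169 in ozone. No ozone library reached down to the air range, and the log2 fold change was 0.54 ± 0.14 (adjusted p = 0.00674, limma). With total reads the difference was 0.22 (adjusted p = 0.168). In lung it ran from 2262 with a median of 2838 to 4434 in air and from 3134 with a median of 3761 to 4944 in ozone, a log2 fold change of 0.38 ± 0.16 that did not pass (adjusted p = 0.109, limma). Air 10 was the high air library, and without it the lung difference was 0.49 (adjusted p = 0.0160). In liver Sqstm1 ran from 2407 with a median of 6631 to 7839 in air and from 3716 with a median of 4886 to 6323 in ozone, a log2 fold change of -0.29 ± 0.25 (adjusted p = 0.583). The single low air value was that of air 1, the liver library least like its group, and without it the difference was -0.54 (adjusted p = 0.0181). The adrenal, hypothalamic and adipose log2 fold changes were 0.15, 0.27 and 0.25, and none passed.

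Bnip3 encodes a mitochondrial outer-membrane receptor that brings mitochondria to autophagosomes and is known as a target of hypoxia-inducible factor. It rose in lung and adipose tissue. In lung it ran from 369 with a median of 487 to 603 in air and from 631 with a median of 687 to 875 in ozone. Its log2 fold change was 0.59 ± 0.13 (adjusted p = 0.00569, limma), with no overlap. In adipose tissue the air values were 3558, 3925, 4141, 4975 and 5572 and the ozone values were 5481, 6665, 8522, 10923 and 15464. That log2 fold change was 1.01 ± 0.25 (adjusted p = 0.0315, limma), with ozone 22 at 5481 inside the air range and a wide spread among the ozone libraries. The adipose call ended without any 1 of air 2, 5, 6 or 9 or ozone 16 or 23, with an adjusted p of at most 0.0791, and with total reads (0.87, adjusted p = 0.0526). Of 11 alternative analyses the adipose call held in 9.

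The adipose difference of Bnip3 exceeded the mean of the other tissues by 0.95 (adjusted p = 0.0189, limma), and the muscle difference lay at -0.70 against that mean (adjusted p = 0.0244). In muscle it ran from 2499 with a median of 3159 to 5784 in air, and the ozone values were 2104, 2751, 3045, 3173 and 3188. This log2 fold change of -0.37 ± 0.22 did not pass (adjusted p = 0.177, limma), while with total reads it was -0.70 and did (adjusted p = 0.0150). Among adrenal libraries 1 in each group stood high, air 8 at 2082 and ozone 16 at 1794, and the log2 fold change was -0.02 ± 0.26. The liver and hypothalamic log2 fold changes were 0.02 and 0.07.

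Ctsl encodes cathepsin L, a lysosomal protease. It had the lowest adjusted p of the 10 genes in lung, where it ran from 3364 with a median of 3479 to 4715 in air and from 5562 with a median of 6534 to 8004 in ozone. Its log2 fold change was 0.86 ± 0.12 (adjusted p = 0.000154, limma), with no overlap although air 10 stood above the other air libraries. The lung difference exceeded the mean of the other tissues by 0.55 (adjusted p = 0.0211, limma). In the adrenal gland the air values were 2777, 2807, 3069, 3305 and 3642 and the ozone values ran from 3658 with a median of 4411 to 5222. Its adrenal log2 fold change was 0.50 ± 0.14 (adjusted p = 0.0216, limma), with groups that did not overlap, the highest air library at 3642 and the lowest ozone library at 3658. That call ended without any 1 of air 2, air 6 or ozone 20 (adjusted p of at most 0.0586) and with total reads (0.37, adjusted p = 0.0709).

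In adipose tissue the Ctsl air values were 7438, 7455, 8025, 8177 and 8301 and the ozone values were 8413, 9785, 11353, 11478 and 11658. The groups did not overlap, but the log2 fold change of 0.41 ± 0.13 did not pass in limma (adjusted p = 0.0740). DESeq2 (0.42, adjusted p = 0.00692) and limma with array weights (0.42, adjusted p = 0.0365) gave a call. So did the omission of ozone 21, the lowest ozone library (0.49, adjusted p = 0.0270). In liver the difference was 0.30 (adjusted p = 0.153), and without air 9, which at 14927 stood far above the next air library, it was 0.39 (adjusted p = 0.0345). In muscle it was 0.29 (adjusted p = 0.194), and without air 9, again the highest air library, it was 0.41 (adjusted p = 0.0368). In the hypothalamus it was 0.05.

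The level of each gene in air also differed between tissues. Levels were expressed as CPM of the recovered reads, with TMM scaling over tissues as an alternative, and are a description only, because each tissue table was normalised apart. Ctsl was highest in liver, at 768 ± 121 (SD, n = 6), followed by adipose tissue at 526 ± 38.1 (SD, n = 5), and neither range overlapped its neighbour. Bnip3 had its 2 highest levels in adipose tissue, at 296 ± 54.6 (SD, n = 5), and muscle, at 255 ± 90.3 (SD, n = 6), which overlapped and changed places with TMM (248 and 393), and was lowest in lung at 39.6 ± 7.05 (SD, n = 6), which overlapped liver at 42.3 ± 8.38 (SD, n = 6). Gabarapl1 was lowest in muscle, at 24.2 ± 7.40 (SD, n = 6), below every lung library, and highest in the adrenal gland at 224 ± 58.6 (SD, n = 5) and hypothalamus at 212 ± 27.7 (SD, n = 6). Map1lc3a was highest in adipose tissue, at 44.2 ± 17.3 (SD, n = 5), and lowest in liver, at 3.76 ± 0.435 (SD, n = 6).

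Wipi1 had its 2 highest levels in lung, at 57.9 ± 9.68 (SD, n = 6), and muscle, at 44.9 ± 5.66 (SD, n = 6), whose ranges overlapped and whose order turned with TMM (40.8 and 69.1). Sqstm1 was lowest in lung, at 253 ± 67.8 (SD, n = 6), where its range overlapped that of every other tissue except the hypothalamus. Ulk1 was lowest in adipose tissue, at 52.0 ± 2.39 (SD, n = 5), and overlapped liver. Map1lc3b had its lowest level, 17.8 ± 1.99 (SD, n = 6), in muscle and its next lowest, 23.8 ± 6.40 (SD, n = 6), in liver, the tissues of its largest rises, but with TMM liver came highest. With TMM, Gabarapl1 was likewise highest in liver, and liver and muscle moved up for most genes. The lowest tissue of Ulk1, Atg14, Map1lc3a, Gabarapl1, Sqstm1 and Bnip3 was the same under both scalings. Becn1 ranged from 35.1 ± 4.43 (SD, n = 6) in liver to 81.2 ± 8.05 (SD, n = 6) in lung, and Atg14 from 10.1 ± 1.62 (SD, n = 6) in muscle to 26.0 ± 3.01 (SD, n = 6) in lung. The top tissue of both changed with TMM.

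**Figure D3:**
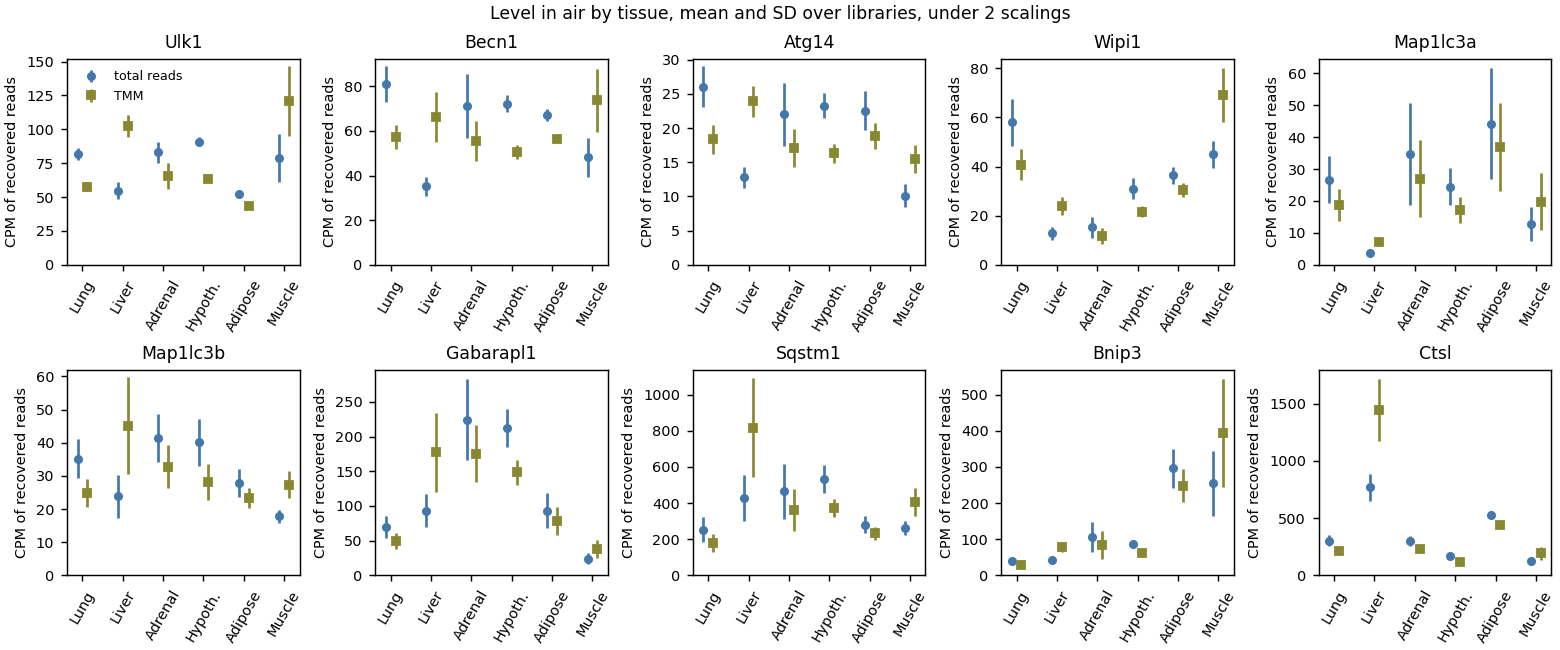
CPM in air (vertical axis from 0; mean with SD over the 5 or 6 libraries) of each gene by tissue, under total reads (circles) and TMM (squares). Ctsl is highest in liver under both scalings and Gabarapl1 lowest in muscle under both. The liver level of every gene is higher with TMM, and liver then becomes the highest tissue for Atg14, Map1lc3b, Gabarapl1 and Sqstm1.

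The rest of the pathway was described from a list of 70 genes in 9 roles, the 10 members included, of which 68 were in the tables. Among the 57 tested list genes outside the 10 in lung, 12 rose and 0 fell, beside 9.51% and 8.18% of all genes. Among adrenal genes 5 of 57 rose and 9 fell, beside 9.23% and 9.38%, and in liver 5 of 57 rose and 0 fell, beside 6.74% and 4.72%. In adipose tissue 3 of 57 rose and 0 fell, beside 3.87% and 3.45%, and in the hypothalamus 0 of 57 passed, beside 0.789% and 0.624%. In muscle 15 of 58 rose and 4 fell, beside 21.6% and 22.1%. With the 10 members included, the muscle list had 20 genes risen and 5 fallen, but 7 risen and 16 fallen with total reads, where 8.58% of all genes rose and 38.2% fell. For the list genes outside the 10, the median log2 fold change was 0.16 in lung, 0.07 in liver, 0.01 in the adrenal gland, 0.04 in the hypothalamus, 0.11 in adipose tissue and 0.21 in muscle. In each of the 6 tissues that was below the median of the 10 members. Both lists were chosen with earlier results of these data known, so this comparison is a description only.

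By role, the ATG8 family had the highest muscle median, 1.43 over 5 genes. In lung the group that expands the membrane, lipid-transfer and lipid-binding proteins with Wipi1 among them, had 5 of 9 risen, where 9.51% of all genes rose. Its median of 0.35 was the highest of the 9 roles. Among adrenal genes the lipid kinase complex had 2 of 7 risen and 2 fallen, and the fusion genes, which join autophagosome and lysosome, likewise had 2 of 7 risen and 2 fallen. Of all adrenal genes 9.23% rose and 9.38% fell. Besides Map1lc3b and Gabarapl1, the list genes that rose in 3 tissues were Atg2a, Wipi2, Vmp1, Tax1bp1 and Atg7, and Atg7 also fell in 1. The share of all genes that rose in 3 tissues was not counted.

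The named genes were those with the largest changes in each tissue. In lung Vamp8, a fusion SNARE protein, rose by 0.58 ± 0.16 (adjusted p = 0.0210, limma), from 159 ± 38.5 to 234 ± 31.0 (SD, n = 6 each), a call lost without ozone 13 or ozone 20 (adjusted p of at most 0.0501). Atg7, the enzyme that activates ATG8 proteins, rose there by 0.51 ± 0.10 (adjusted p = 0.00305), from 360 ± 50.8 to 508 ± 37.5 (SD, n = 6 each). In adipose tissue Atg7 rose by 0.99 ± 0.19 (adjusted p = 0.00937), from 351 ± 109 to 685 ± 116 (SD, n = 5 each), without overlap. Vmp1, a membrane protein of autophagosome formation, rose by 0.78 ± 0.13 in liver (adjusted p = 0.00149) and by 0.93 ± 0.16 in adipose tissue (adjusted p = 0.00447), without overlap in either. Ncoa4, the receptor that carries ferritin to autophagosomes, rose by 0.75 ± 0.15 in liver (adjusted p = 0.00466), where air 1 at 3980 lay inside the ozone range.

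The adrenal list moved in both directions. Epg5, a tether for fusion with the lysosome, rose by 1.30 ± 0.25 (adjusted p = 0.00342, limma), and Wipi2, a relative of Wipi1, by 1.23 ± 0.13 (adjusted p = 4.46e-05), from 709 ± 125 (SD, n = 5) to 1645 ± 118 (SD, n = 6). Wipi1 itself was at -0.22 there. Tfeb, a transcription factor for lysosomal genes, had a log2 fold change of -1.05 ± 0.30 (adjusted p = 0.0264), and Atg10, an enzyme of the conjugation step, one of -0.88 ± 0.24 (adjusted p = 0.0222). Both falls were lost without 6 single libraries each, the Tfeb fall without air 2, 6, 9 or 11 or ozone 17 or 19 (adjusted p of at most 0.0682) and the Atg10 fall without air 2, 6 or 11 or ozone 14, 17 or 20 (at most 0.0564).

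In muscle Fam134b, listed elsewhere as Retreg1, a receptor for autophagy of the endoplasmic reticulum, had the largest change among the tested genes of the list. It was too low to be tested in any other tissue. In muscle its mean was 8.32 in air and 205 in ozone. It thus passed the minimum mean of 10 through its ozone libraries, and its fold change starts from an air level below that minimum. Its values were 0, 1.89, 2.02, 5.75, 7.46 and 32.8 in air and 25.9, 26.3, 251, 261 and 459 in ozone. The log2 fold change was 4.54 ± 0.93 (adjusted p = 0.00202, limma), with 2 ozone libraries inside the air range. Atg101, a subunit of the Ulk1 complex, rose by 1.38 ± 0.23 (adjusted p = 0.000512), from 165 ± 54.9 (SD, n = 6) to 411 ± 53.1 (SD, n = 5), while Ulk1 was at -0.03. Lamp2, a lysosomal membrane protein, had a log2 fold change of -0.86 ± 0.14 (adjusted p = 0.000536) from 854 ± 171 (SD, n = 6) to 465 ± 50.3 (SD, n = 5), and every ozone library lay below every air library. Bnip3l, the closest relative of Bnip3, had one of -0.50 ± 0.16 (adjusted p = 0.0185), lost without ozone 13 or ozone 23 (adjusted p = 0.0523 and 0.0542).

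**Figure D4:**
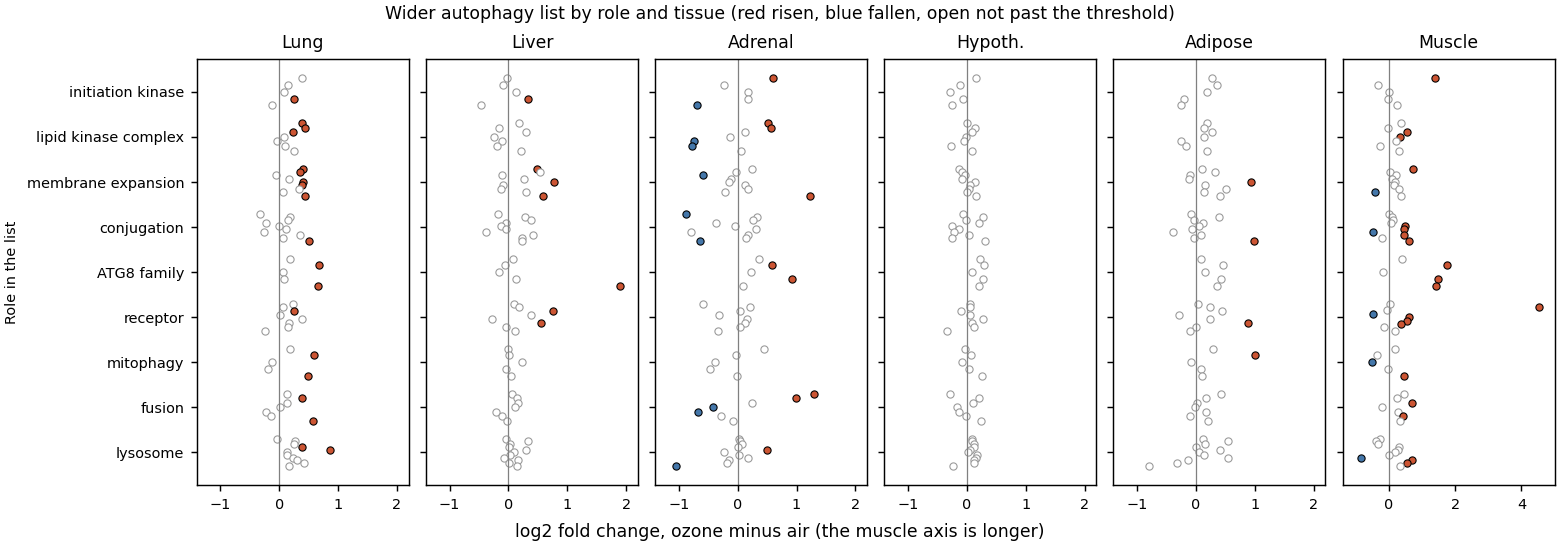
Log2 fold change (ozone minus air, horizontal axis) of each tested gene of the 68-gene list, by role and tissue, with red for risen, blue for fallen and open grey for not past the threshold. Lung, liver and adipose tissue hold 0 blue points, the adrenal gland holds 9 risen and 9 fallen genes, and the muscle point at 4.54 is Fam134b.

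Genes whose pattern over the 6 tissues was most like that of Map1lc3b were ranked by the Euclidean distance of their 6 log2 fold changes among 11111 genes. The nearest was its copy Map1lc3b2 at 0.41, followed by Bach1 at 0.54, a transcriptional repressor that senses heme, AABR07033564.1 at 0.57, Ell2 at 0.60, a transcription elongation factor, and LOC103689968 at 0.67. Bach1 had log2 fold changes of 1.99 in liver, 1.42 in muscle and 0.38 in lung, and Ell2 of 1.56, 1.24 and 0.54. The nearest other member was Becn1, at a distance of 1.88 and rank 698, and the other 8 lay farther away.

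Recovered reads ran from 8854272 to 18848151 per library, and the libraries least like their groups were adrenal air 8, liver air 1 and adipose ozone 22. Markers of each labelled tissue were present. The lung epithelium, hepatocyte, adrenal cortex, neuron, adipocyte and skeletal muscle lists summed to at least 28572 in every library of their tissue. Some libraries also held markers of other tissues. The skeletal muscle list summed to 949 to 80941 in adipose air and 442 to 11147.5 in adipose ozone. The hepatocyte list summed to 635 to 22435 in adrenal air and 295 to 8233 in adrenal ozone. In lung it summed to 735 to 17202 in air and 697 to 3369 in ozone. The adipocyte list in lung summed to 98.9 to 8087 in air and 173 to 1878 in ozone. No tested marker of these lists passed in these tissues. Some marker lists moved with ozone where members changed. In muscle 4 of 5 tested skeletal muscle markers rose (summed value 397969 to 865308 in air, 1037400 to 1694290 in ozone) and 4 of 4 fibroblast markers fell (70890 to 239649 in air, 17608 to 75290 in ozone). Muscle macrophage markers, with Marco at 0, had 2 of 5 fallen (1322 to 2564 in air, 756 to 1982 in ozone), 2 of 3 endothelial markers fell (3152 to 4769 in air, 2674 to 3304 in ozone), and 3 of 3 tested astrocyte and oligodendrocyte markers fell (5083 to 7570.4 in air, 1572 to 4692 in ozone). In lung 2 of 6 epithelial markers rose, 2 of 5 macrophage markers rose and 2 fell (5763 to 6887 in air, 6411 to 8005 in ozone, with Marco at a mean of 1.56 in air and 0 in ozone), 3 of 5 neutrophil markers fell (709 to 930.3 in air, 434 to 568 in ozone), and 4 of 5 B lymphocyte markers fell (1069 to 2338 in air, 459 to 635 in ozone). Also in lung, 2 of 6 T and NK lymphocyte markers fell (569 to 802 in air, 368 to 624 in ozone), 1 of 3 endothelial markers fell (34627 to 50186 in air, 32523 to 39899 in ozone) and 1 of 2 tested neuron markers rose (95.2 to 186 in air, 192 to 308 in ozone). Among adrenal markers 1 of 6 chromaffin markers rose (11280 to 25779 in air, 20586 to 35833 in ozone) and 2 of 5 adipocyte markers rose (1814 to 4353 in air, 2893 to 9043 in ozone), as did 1 of 6 lung epithelium markers (53.4 to 1054 in air, 197 to 4027 in ozone) and 1 of 3 endothelial markers (5705 to 6222 in air, 6529.7 to 8035 in ozone). In adipose tissue 1 of 5 adipocyte markers rose (243605 to 308159 in air, 281669 to 443840.0 in ozone), 1 of 3 endothelial markers rose (10906 to 15739 in air, 12869 to 17378 in ozone), 1 of 2 tested neutrophil markers fell (272 to 449.6 in air, 269 to 434 in ozone) and 1 of 3 tested adrenal cortex markers fell (797 to 1079.5 in air, 551 to 1179 in ozone), while 0 of 5 tested macrophage markers passed. In liver 1 of 2 tested adipocyte markers rose (337 to 495 in air, 472 to 789.6 in ozone), 1 of 2 tested brown adipocyte markers rose (42.9 to 101.3 in air, 201 to 559 in ozone) and 1 of 5 astrocyte and oligodendrocyte markers fell (130.04 to 323 in air, 111 to 203 in ozone), while 0 of 6 hepatocyte markers passed. In the hypothalamus 0 markers of any list passed. The part of these cell types in the results was not tested.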

How the data were processed

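For each tissue the authors deposited a separate table of normalised values. Partek, DESeq2 and rat build rn6 are named in the submitters' processing notes. Which aligner, counting method, strand setting and annotation were used is not given in the sources used here. The deposited values are a signal, counts scaled by a single size factor in each library: 100% of values were whole multiples of a step within 0.01. Each table held 19465 rows, and 24 rows whose symbol had become a date were dropped (at most 0.320% of reads). The tables held 68 of 70 labelled libraries; muscle ozone 17 and adrenal air 7 were not analysed here. No pair of libraries in a group was a copy (lowest chi-square per degree of freedom 8.76). The labels do not say that each library is a separate rat, so p-values measure the spread between libraries. Air numbers end at 12 and ozone numbers begin at 13, so any order of handling cannot be told apart from ozone.

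Genes with a mean value of at least 10 were tested on log2(value + 1) in limma 3.58.1 (R 4.3.3) with trend and robust moderation, each tissue apart, at an adjusted p under 0.05 (Benjamini-Hochberg over all genes). On this scale fold changes of low genes are understated. The tissue F test pooled the spread over tissues. The contrasts of a tissue against the mean of the others, and the sum of Map1lc3b and Map1lc3b2, were added after the data were seen. edgeR 4.0.16 and DESeq2 1.42.0 on recovered reads were alternatives, and limma was tested on simulated data. Deviations of same-numbered libraries of different tissues correlated between -0.48 and 0.53 (median 0.01), and 34 of 90 pairs lay above 0.1. Differently numbered pairs were not compared, so whether same-numbered libraries are related was not tested. The members, the wider list and the marker lists were chosen with earlier results of these data known. Besides the 10 members, named genes were up to 2 highest and 2 lowest called genes of the wider list per tissue with a mean of at least 50, and the 5 genes nearest to Map1lc3b. Gabarap, Gabarapl2 and the genes risen in 3 tissues were named after their values were seen.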

Additional observations from a re-analysis of the deposited data

Results flagged for a closer look

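Of 148 groups of 5 or 6 libraries checked, 14 held a library far from the others by Dixon's gap test, and chance alone flags about 1 in 20. Among the 14, 2 came from liver air 1, the liver library least like its group, with Sqstm1 at 2407 and Ncoa4 at 3980. In the adrenal gland Bnip3 stood high in air 8 at 2082 and in ozone 16 at 1794. In the lung Ctsl stood high in air 10 at 4715 and Vamp8 low in ozone 15 at 174. Ctsl stood high in liver air 9 at 14927. In the hypothalamus Ulk1 stood high in ozone 15 at 1266, Becn1 low in air 2 at 770.3 and Atg14 high in ozone 17 at 339.6. In adipose tissue Map1lc3b stood high in ozone 21 at 689.9 and Atg7 high in air 9 at 539. In muscle Gabarapl1 stood high in air 9 at 597 and Fam134b high in air 2 at 32.8.

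The ozone differences of 8 members varied between tissues by the limma F test, with F of 19.7 for Map1lc3b, 11.7 for Gabarapl1, 7.07 for Atg14, 4.70 for Ulk1, 4.67 for Map1lc3a, 4.48 for Bnip3, 4.23 for Wipi1 and 3.97 for Ctsl.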

How the results depend on the processing

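No result changed its direction past the threshold. With total reads, members risen were 1 in liver, 0 in adrenal, 0 in adipose tissue and 3 in muscle, with 2 fallen in muscle. Over the whole 68-gene list the same scaling gave 1 fallen in lung, 3 risen in adrenal, 2 fallen in adipose tissue, and 7 risen and 16 fallen in muscle, against 0, 9, 0, 20 and 5. Of all genes 11.5% then fell in lung, 6.05% rose in adrenal and 6.62% fell in adipose tissue. In muscle 8.58% rose and 38.2% fell. Members risen in liver were also 1 with no minimum (4.24% of all genes), TMM (6.61%), median centring (6.09%), edgeR (6.42%), and neither trend nor robust moderation (6.39%). The last gave 0 in adipose tissue (3.32%), and DESeq2 (5.87%) and array weights (5.38%) gave 2. Array weights gave 1 member fallen in liver (7.95% of all genes). Over the list they gave 1 fallen in lung (12.4%), and 12 risen (10.4%) and 1 fallen in liver. They also gave 15 risen and 15 fallen in adrenal (17.2% each way), and 9 risen (5.38%) and 1 fallen (5.09%) in adipose tissue. DESeq2 gave, over the list, 1 fallen in liver (6.67% of all genes) and 8 risen (5.87%) and 1 fallen (5.47%) in adipose tissue. Without each library in turn, between 1 and 4 members rose in adrenal, between 0 and 2 in adipose tissue, between 5 and 6 in muscle, between 5 and 8 in lung and between 1 and 2 in liver, where between 0 and 1 fell. List genes risen ran from 5 to 11 in adrenal, and fallen from 0 to 1 in lung, liver and adipose tissue. In those fits 7.29% to 12.7% of all genes rose in adrenal and 17.4% to 21.8% in muscle. In lung 7.17% to 12% rose and 6.11% to 10.6% fell, and in liver 5.15% to 8.1% rose and 3.29% to 5.67% fell. In adipose tissue 2.33% to 4.28% rose and 1.87% to 4.34% fell. Adrenal risen members were 2 without air 6, ozone 14, 15 or 19 and 1 without ozone 20. The causes were not tested.

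With the replicate block (label number as a random effect across tissues, consensus correlation 0.00236), 8 members varied between tissues, as without it. Without muscle 5 did: Wipi1 (F = 2.24), Map1lc3a (2.11) and Gabarapl1 (2.99) no longer passed. Bnip3 did not pass without adipose tissue (2.54), nor Ctsl without lung (1.41) or hypothalamus (3.09). Becn1 passed without liver (3.19, adjusted p = 0.0497). Within a tissue no block was possible, since air and ozone share no number. Depth was lowest for Map1lc3a in liver, with 45 to 73 recovered reads per library, and its effect on the calls was not tested.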
